A study of Mus musculus with 10 samples.

Results

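Transcripts of 9 genes of the ubiquitin ligases that act on p27 protein were followed in cultures of adult mouse neural stem cells and progenitors (NSC/NPCs). The genes were chosen by function and found by symbol among the 48795 genes of the count table. They are Skp2, Cks1b, Skp1a, Cul1 and Rbx1 of the SCF-Skp2 ligase, Rnf123 and Ubac1 of the KPC ligase, Cops5 of the COP9 signalosome, and Fbxw7. All 9 were measured, and all 9 were among the 12859 genes that passed the filter on low counts. RNA was sequenced from 10 libraries of cultures from the subependymal zone of mice of 10 weeks. Proliferating neurospheres (PRO), floating aggregates of dividing cells, were at 3 days in vitro (DIV) with 20 ng/ml EGF and 10 ng/ml FGF. Differentiating cells (DIFF, 2 + 1 DIV) had spent 2 days on Matrigel with FGF and then 24 h without mitogens in 2% fetal bovine serum, so that the stages differed in mitogens, serum and attachment together. Each stage had 3 libraries from wild-type (WT) mice and 2 from Cdkn1b mutant (p27KO) mice, these kept on a C57BL/6J background. The titles and genotype labels of the mutant libraries read p27KO, whereas their free-text descriptions read WT, and the titles and genotypes were followed.

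p27, the product of Cdkn1b, binds and inhibits cyclin-dependent kinases and holds cells out of the cycle. Its level is set largely by destruction of the protein. SCF ligases are built on a cullin, CUL1, which carries the RING protein RBX1 at one end and, through the adaptor SKP1, an F-box protein at the other, and the F-box protein picks the substrate. SKP2 takes p27 once it is phosphorylated and needs the small protein CKS1 (from Cks1b) to do so, whereas the KPC complex of RNF123 and UBAC1 acts on p27 in the cytoplasm during G1.

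The libraries held 19190068 to 25291674 estimated counts each, and the smallest count of any of the 9 genes in a library was 175. CPM is a gene's count scaled to its library's total count. Cdkn1b, the targeted gene, was at 103, 105 and 112 CPM in the WT neurospheres, at 207, 205 and 209 CPM in WT DIFF, at 114 and 90.7 CPM in p27KO neurospheres and at 140.2 and 137 CPM in p27KO DIFF. Its counts were therefore not lost in the libraries labelled p27KO, and the part of the gene that the allele removes is not given in the sources used here, so that counts over the gene do not check the label. The genotypes also differed in sex-linked transcripts, with Xist at 2258 to 3595 CPM in p27KO and at most 2.57 CPM in WT and the reverse for genes of the Y chromosome, so genotype and sex cannot be told apart. The 9 NSC and NPC markers summed to 8167 to 9726 CPM over all libraries, and Nes, Vim and Sox9 were present in all. In WT 3 of the 9 (33.3%) rose and 3 (33.3%) fell between the stages, near the 33.5% and 33.9% of all genes tested. Nes was 8.95-fold and Olig2 2.89-fold lower in WT DIFF, and Msi1 was 5.50-fold and Slc1a3 3.09-fold higher (edgeR adjusted p of at most 4.88e-06). The 14 markers of cycling cells summed to 3532 to 3901 CPM in WT PRO, 298 to 448 CPM in WT DIFF, 3808 to 4297 CPM in p27KO PRO and 988 to 1067 CPM in p27KO DIFF. Over both genotypes, astrocyte markers summed to 514 to 766 CPM in PRO and 1925 to 2572 CPM in DIFF. Fibroblast and mural cell markers summed to at most 4.27 CPM in PRO and 33.6 to 105 CPM in DIFF. Of these 8 markers, 4 (Col1a2, Dcn, Lum and Rgs5) were under 1 CPM in every library and 2 passed the filter, so the sum rests on few genes. The part of the astrocyte list and of this list in the stage changes below was not tested. Markers of microglia and blood cells summed to at most 0.663 CPM, and 4 of the 6 endothelial markers (Pecam1, Cdh5, Cldn5 and Tie1) were under 1 CPM in every library. The other endothelial markers moved in opposite directions in WT, Flt1 falling 13.1-fold from 11.5 to 47.7 CPM in PRO and Kdr rising 3.97-fold to 4.27 to 9.78 CPM in DIFF (edgeR adjusted p = 0.00251 and 0.000838), and the 6 summed to 13.3 to 49.9 CPM in WT PRO and 5.30 to 12.9 CPM in WT DIFF. In bulk RNA, fewer cells of a kind and less RNA per cell cannot be told apart.

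The promoters of Skp2 and Cks1b are shown first because these 2 genes had the largest changes described below, and that of Skp1a because this partner changed the other way. They were read from the RefSeq promoter table (GRCm38.p6) as windows of 250 bases before and 50 after each annotated start, 5′ to 3′ on the gene's strand. Capitals mark matches on either strand to GCGGGAA (short E2F motif), TTTGAA (CHR element, found in genes expressed at G2/M), GGGCGG (GC box) and the CCAAT box. TTTGGCGC and TTTCGCGC, longer E2F motifs, were also searched. Skp2 has 2 annotated starts, one 89 bases from the start of its principal transcript (chr15:9140405-9140704, minus strand) and one 15060 bases from it (chr15:9155376-9155675, minus strand). The Cks1b window is chr3:89418242-89418541 on the minus strand and the Skp1a window chr11:52231745-52232044 on the plus strand.
Skp2, start near the principal transcript: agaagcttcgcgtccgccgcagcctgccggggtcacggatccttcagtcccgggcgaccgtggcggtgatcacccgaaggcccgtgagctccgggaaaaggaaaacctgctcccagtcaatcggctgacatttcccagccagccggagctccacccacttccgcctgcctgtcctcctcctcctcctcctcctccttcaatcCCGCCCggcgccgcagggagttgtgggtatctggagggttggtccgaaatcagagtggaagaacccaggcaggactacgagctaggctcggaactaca
Skp2, upstream start: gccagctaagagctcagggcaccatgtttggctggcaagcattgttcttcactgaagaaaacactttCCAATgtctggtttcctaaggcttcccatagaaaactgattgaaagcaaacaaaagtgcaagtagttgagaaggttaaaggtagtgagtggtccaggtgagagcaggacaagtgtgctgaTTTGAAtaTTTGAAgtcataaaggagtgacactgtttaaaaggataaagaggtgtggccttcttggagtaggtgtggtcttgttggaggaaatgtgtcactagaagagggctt
Cks1b: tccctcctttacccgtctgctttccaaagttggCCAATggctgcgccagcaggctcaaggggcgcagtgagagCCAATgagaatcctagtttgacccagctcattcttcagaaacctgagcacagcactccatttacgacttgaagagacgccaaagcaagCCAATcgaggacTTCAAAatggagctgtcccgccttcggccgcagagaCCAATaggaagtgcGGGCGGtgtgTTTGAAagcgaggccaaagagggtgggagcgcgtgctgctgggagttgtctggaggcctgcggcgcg
Skp1a: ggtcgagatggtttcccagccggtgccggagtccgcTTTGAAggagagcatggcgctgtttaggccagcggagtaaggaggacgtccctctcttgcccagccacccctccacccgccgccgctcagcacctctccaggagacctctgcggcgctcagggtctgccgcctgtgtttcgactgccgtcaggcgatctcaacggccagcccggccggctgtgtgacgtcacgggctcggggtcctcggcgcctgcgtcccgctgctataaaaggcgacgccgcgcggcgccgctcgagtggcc

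The Cks1b window held 4 CCAAT boxes, at 217, 177, 89 and 41 bases before the start, and 2 TTTGAA matches, 1 of them on the opposite strand. The Skp2 window near the principal transcript held a GC box on the opposite strand and none of the other letters. The upstream Skp2 window held 2 TTTGAA and 1 CCAAT. Over the 13 windows of the 8 genes in the table, TTTGAA was found in 3 windows (Skp2, Cks1b and Skp1a), CCAAT in 3 (Skp2, Cks1b and Rbx1), GGGCGG in 9 windows of 7 genes, GCGGGAA in 1 (Rbx1, overlapping a GC box) and the longer E2F motifs in 0. Among all 32851 promoter windows of the same length, TTTGAA was present in 17.9%, CCAAT in 37.4%, GGGCGG in 35.7%, GCGGGAA in 4.60%, TTTGGCGC in 0.514% and TTTCGCGC in 0.323%. A gene that fell (Cks1b) and a gene that rose (Skp1a) thus both held TTTGAA, and a match of letters is a description of the window only.

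To compare the abundance of transcripts of different genes, CPM was divided by the length of the principal annotated transcript in kilobases. The order of the genes depends on this choice of length. The principal transcript and all annotated exons together span 3118 and 7875 bases for Skp2, 2221 and 7046 for Fbxw7, and 849 and 1126 for Cks1b. In WT neurospheres Skp1a stood highest, with 121 ± 11.4 CPM per kb (SD, n = 3). It was followed by Cks1b with 76.1 ± 1.96, Rbx1 with 65.8 ± 3.84, Cops5 with 65.3 ± 6.50 and Cul1 with 40.4 ± 1.65 CPM per kb. Ubac1 (19.7 ± 1.23), Skp2 (18.8 ± 1.61) and Fbxw7 (17.3 ± 1.44) were next, and Rnf123 was lowest with 6.81 ± 0.748 CPM per kb. Neighbours in this order overlapped between libraries for Rbx1 and Cops5, Ubac1 and Skp2, and Skp2 and Fbxw7. In WT DIFF the same order was headed by Skp1a (164 ± 13.1 CPM per kb), but Cks1b had moved from second to seventh (10.7 ± 2.00 CPM per kb, overlapping Rnf123 at 8.58 ± 0.938), and Skp2 was now lowest with 6.51 ± 1.08 CPM per kb. In p27KO DIFF Cks1b stood sixth with 15.1 ± 0.0793 CPM per kb (SD, n = 2), overlapping Ubac1, and Skp2 eighth with 7.55 ± 0.758 CPM per kb, above Rnf123 with 6.56 ± 0.0764 CPM per kb.

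The first comparison asked how the 9 transcripts changed between proliferation and the onset of differentiation. In WT cells 5 of the 9 fell (Skp2, Cks1b, Cul1, Rbx1 and Ubac1), 2 rose (Skp1a and Rnf123) and 2 did not pass the test (Cops5 and Fbxw7) by the quasi-likelihood test of edgeR (p adjusted by Benjamini-Hochberg). Of all 12859 genes tested, 33.9% fell and 33.5% rose in this comparison, so that being called was common. The median log2 fold change of the 9 genes was -0.30, beside 0.00 over all genes tested. The substrate-recognising pair Skp2 and Cks1b fell by far more than the others. Cks1b was lower than all but 251 of the tested genes in log2 fold change (1.95% of them lay below it), and Skp2 than all but 823 (6.40%).

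Gene positions below are from GENCODE vM21 on GRCm38, the build of the files. Skp2 (ENSMUSG00000054115, chr15:9111985-9155425, minus strand) encodes the F-box protein that recognises phosphorylated p27. It was at 63.0, 53.1 and 59.3 CPM in the WT neurospheres and at 23.9, 17.2 and 19.9 CPM in WT DIFF. In p27KO, Skp2 was at 61.7 and 53.8 CPM in neurospheres and at 21.9 and 25.2 CPM in DIFF. Every DIFF library lay below every neurosphere library, in both genotypes. The fitted fall was 2.91-fold in WT (log2 fold change -1.54 ± 0.125 SE, edgeR adjusted p = 3.8e-06) and 2.50-fold in p27KO (log2 fold change -1.32 ± 0.152 SE, edgeR adjusted p = 6.87e-05). Skp2 overlaps Lmbrd2 on the other strand, and whether the counting used strand is not given in the sources used here.

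Cks1b (ENSMUSG00000028044, chr3:89415472-89418383, minus strand, overlapping no annotated gene) encodes CKS1, the cofactor that lets SKP2 bind p27. It was at 63.2, 64.3 and 66.4 CPM in WT neurospheres and at 8.91, 7.54 and 10.9 CPM in WT DIFF. In p27KO, Cks1b was at 61.1 and 57.6 CPM in neurospheres and at 12.8 and 12.9 CPM in DIFF. The stages did not overlap, and the p27KO DIFF libraries were above all 3 WT DIFF libraries. The fall was 7.14-fold in WT (log2 fold change -2.84 ± 0.117 SE, edgeR adjusted p = 8.36e-08) and 4.71-fold in p27KO (log2 fold change -2.24 ± 0.139 SE, edgeR adjusted p = 2.52e-06). The falls of Skp2 and Cks1b passed the threshold in both genotypes under every alternative tried and without each library in turn. The 14 markers of cycling cells, a list that includes neither gene, all fell in both genotypes, with median log2 fold changes of -3.52 in WT and -2.29 in p27KO, and their part in the falls of Skp2 and Cks1b was not tested.

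**Figure D1:**
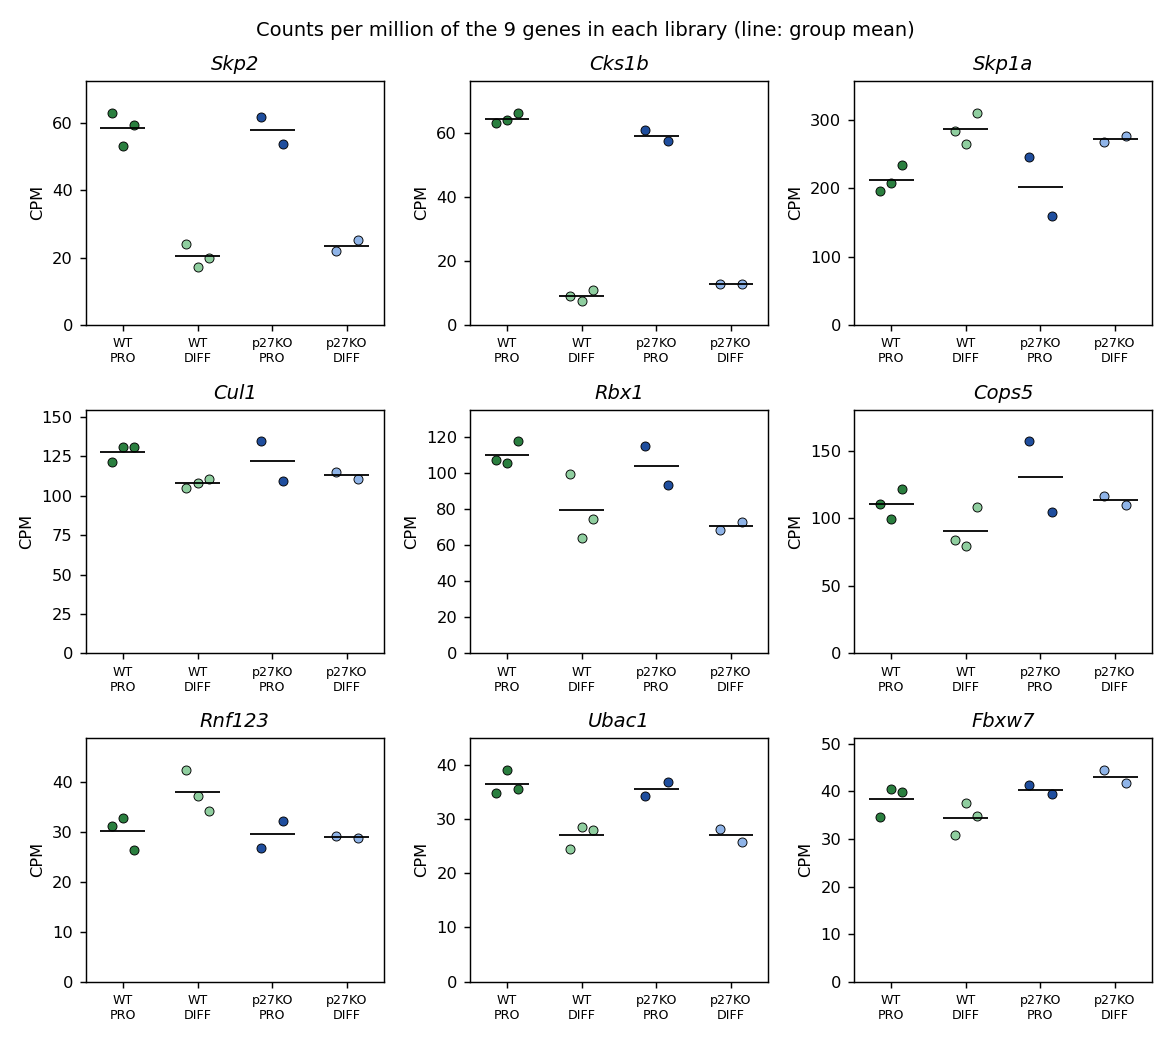
CPM (vertical axes, each from 0) of the 9 genes in each of the 10 libraries, by genotype and stage, with a line at each group mean. Skp2 and Cks1b drop in both genotypes (Cks1b from 63.2 to 66.4 CPM in WT PRO to 7.54 to 10.9 CPM in WT DIFF), whereas the common SCF parts change less. In the fit, Skp1a rose 1.34-fold and Cul1 fell 1.19-fold in WT, and Rbx1 fell 1.40-fold in WT and 1.50-fold in p27KO.

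The common parts of SCF ligases changed less than this pair. Skp1a, the adaptor between cullin and F-box protein (ENSMUSG00000036309, chr11:52231995-52246858, plus strand), was at 196, 209 and 235 CPM in WT neurospheres and at 285, 265 and 311 CPM in WT DIFF. It rose 1.34-fold in WT (log2 fold change 0.42 ± 0.136 SE, edgeR adjusted p = 0.0205), with no overlap between the stages. In p27KO it was at 246 and 159.8 CPM in neurospheres and at 268 and 278 CPM in DIFF, and its log2 fold change of 0.41 ± 0.167 (SE) missed the threshold (edgeR adjusted p = 0.0607), but passed it with DESeq2 (log2 fold change 0.43, adjusted p = 0.0296) and, in edgeR, without the first p27KO neurosphere library (log2 fold change 0.72, edgeR adjusted p = 0.00227). The WT rise missed the threshold without WT PRO library 1 or 2 or WT DIFF library 3 (log2 fold changes 0.36, 0.40 and 0.37, edgeR adjusted p = 0.0703, 0.0596 and 0.0643).

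Cul1, the scaffold (ENSMUSG00000029686, chr6:47453398-47526139, plus strand), was at 122, 131 and 131 CPM in WT neurospheres and at 105, 108 and 111 CPM in WT DIFF. The stages did not overlap, and the fall was 1.19-fold (log2 fold change -0.25 ± 0.0799 SE, edgeR adjusted p = 0.0179). It was lost without WT PRO library 2 or 3 or WT DIFF library 1 (edgeR adjusted p = 0.0554, 0.0560 and 0.0647). In p27KO, Cul1 was at 135 and 109.7 CPM in neurospheres and 115 and 111 CPM in DIFF, which overlapped, and its log2 fold change was -0.14 ± 0.0977 (SE, edgeR adjusted p = 0.258), or -0.26 without the second neurosphere library (edgeR adjusted p = 0.0443).

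Rbx1, the RING subunit that recruits the ubiquitin-conjugating enzyme (ENSMUSG00000022400, chr15:81466296-81476369, plus strand, overlapping no annotated gene), was at 108, 106 and 118 CPM in WT neurospheres. In WT DIFF it was at 99.7, 64.2 and 74.3 CPM, so that 1 DIFF library stood close to the neurospheres. Its fall was 1.40-fold (log2 fold change -0.49 ± 0.142 SE, edgeR adjusted p = 0.0120). In p27KO it went from 115 and 93.2 CPM to 68.3 and 73.0 CPM, a fall of 1.50-fold (log2 fold change -0.58 ± 0.175 SE, edgeR adjusted p = 0.0167), which missed the threshold without p27KO PRO library 1, DIFF library 1 or DIFF library 2 (log2 fold changes -0.45, -0.54 and -0.62, edgeR adjusted p = 0.106, 0.0858 and 0.0557).

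Cops5 (ENSMUSG00000025917, chr1:10024601-10038168, minus strand, overlapping Cspp1) encodes the subunit of the COP9 signalosome that removes NEDD8 from cullins and also binds p27. It was at 111, 99.8 and 122 CPM in WT neurospheres and at 83.8, 79.6 and 108 CPM in WT DIFF, and these ranges overlapped. The log2 fold change in WT was -0.30 ± 0.155 (SE, edgeR adjusted p = 0.106). Blocking on the replicate number gave -0.31, past the threshold (edgeR adjusted p = 0.0246), as it did without WT DIFF library 3 (log2 fold change -0.44, edgeR adjusted p = 0.0334). In p27KO, Cops5 was at 157 and 105 CPM in neurospheres and at 117 and 109.9 CPM in DIFF, with a log2 fold change of -0.23 ± 0.189 (SE, edgeR adjusted p = 0.322).

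The KPC subunits moved in opposite directions in WT. Rnf123, the RING subunit (ENSMUSG00000041528, chr9:108051534-108083346, minus strand, overlapping 5 annotated genes, among them Gmppb, Amigo3 and Mst1), was at 31.3, 32.7 and 26.4 CPM in WT neurospheres and at 42.4, 37.2 and 34.2 CPM in WT DIFF. It rose 1.25-fold (log2 fold change 0.32 ± 0.122 SE, edgeR adjusted p = 0.0384). Of the 7 WT calls this one was lost under the most alternatives, namely without a filter on low counts (log2 fold change 0.24, edgeR adjusted p = 0.146), with the wider filter (0.28, adjusted p = 0.0592) and without any 1 of 6 libraries (WT PRO 1 and 3, WT DIFF 1 and 2, and both p27KO DIFF, with log2 fold changes of 0.24 to 0.35 and edgeR adjusted p of 0.0548 to 0.134). The p27KO libraries had 26.8 and 32.2 CPM in neurospheres and at 29.3 and 28.8 CPM in DIFF, and these overlapped, with a log2 fold change of -0.05 ± 0.149 (SE, edgeR adjusted p = 0.789).

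Ubac1, the UBA-domain subunit of KPC (ENSMUSG00000036352, chr2:25998543-26021747, minus strand, overlapping no annotated gene), was at 34.8, 39.1 and 35.6 CPM in WT neurospheres and at 24.4, 28.5 and 28.0 CPM in WT DIFF. The p27KO libraries had 34.2 and 36.8 CPM and then at 28.1 and 25.8 CPM. No DIFF library reached a neurosphere library in either genotype. The fall was 1.36-fold in WT (log2 fold change -0.44 ± 0.0984 SE, edgeR adjusted p = 0.0027) and 1.34-fold in p27KO (log2 fold change -0.42 ± 0.120 SE, edgeR adjusted p = 0.0133). The p27KO fall missed the threshold without PRO library 2 or DIFF library 2 (log2 fold changes -0.35 and -0.35, edgeR adjusted p = 0.0722 and 0.0941).

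Fbxw7 (ENSMUSG00000028086, chr3:84815268-84979198, plus strand), whose F-box protein directs the destruction of cyclin E, MYC, JUN and Notch, was at 34.7, 40.5 and 39.8 CPM in WT neurospheres and at 30.8, 37.6 and 34.8 CPM in WT DIFF. The ranges overlapped, and the log2 fold change of -0.16 ± 0.101 (SE) did not pass the test (edgeR adjusted p = 0.179). In p27KO it was at 41.4 and 39.4 CPM and then at 44.6 and 41.7 CPM, with a log2 fold change of 0.07 ± 0.124 (SE, edgeR adjusted p = 0.651).

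In p27KO as a whole, 4 of the 9 genes fell (Skp2, Cks1b, Rbx1 and Ubac1) and 0 rose by edgeR, with 1 (Skp1a) higher at an unadjusted p under 0.05 and 5 of the 9 called in either direction by DESeq2. Of all 12859 genes tested, 30.2% fell and 27.5% rose in p27KO by edgeR, and 8017 had an unadjusted p under 0.05 in either direction. For the DESeq2 counts, here and below, no share over all genes is given. The median log2 fold change of the 9 genes was -0.23, beside -0.03 over all genes. The second p27KO neurosphere library was below the first for 7 of the 9 genes, and the gap was widest for Skp1a (246 against 159.8 CPM) and Cops5 (157 against 105 CPM).

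The next comparison asked whether the stage change differed between genotypes. By the interaction term in edgeR, 0 of the 9 genes passed the threshold, as by DESeq2, and 1 (Cks1b) had an unadjusted p under 0.05. Over all 12859 genes tested 0.389% passed, and 554 had an unadjusted p under 0.05 by edgeR. The Cks1b fall was smaller in p27KO by 0.60 on the log2 scale (95% interval 0.21 to 0.99, edgeR adjusted p = 0.436). For Skp2 the difference between the falls was 0.22 with a 95% interval of -0.21 to 0.65, for Fbxw7 0.23 (-0.13 to 0.59) and for Rnf123 -0.37 (-0.80 to 0.06). The intervals of the other genes also included 0, the widest being those of Cops5 (-0.47 to 0.62) and Rbx1 (-0.60 to 0.41), and they leave room for differences of that size.

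**Figure D2:**
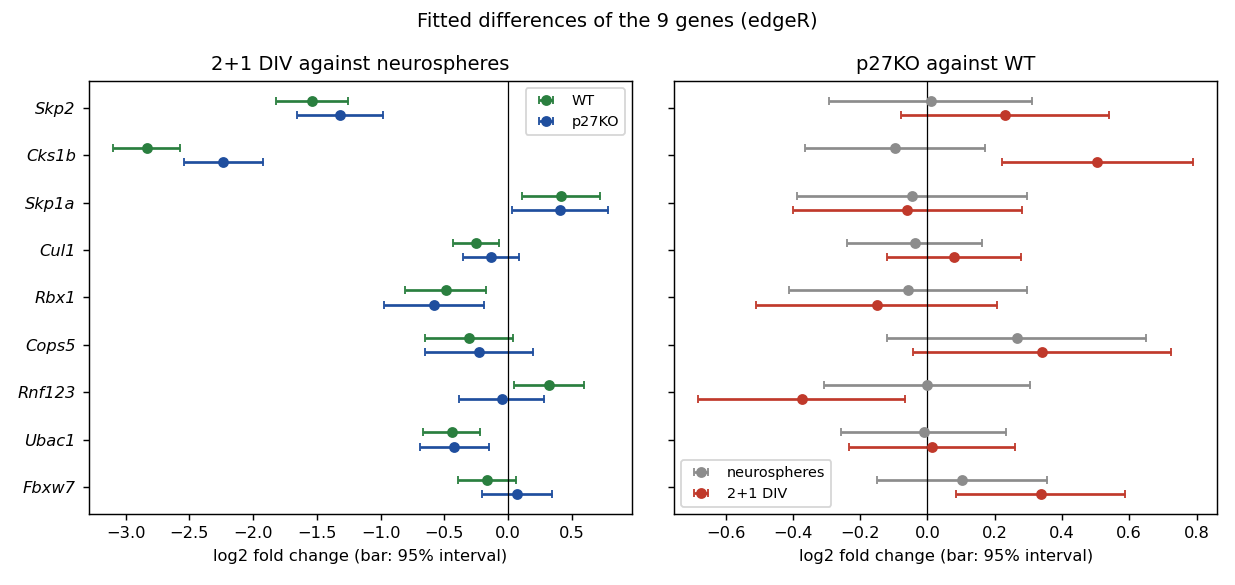
Fitted log2 fold changes of the 9 genes with 95% intervals, at left 2 + 1 DIV against neurospheres in each genotype and at right p27KO against WT at each stage. At left the Skp2 and Cks1b intervals lie far below 0 in both genotypes. At right most intervals cross 0, and those of Cks1b (0.22 to 0.79), Fbxw7 and Rnf123 at 2 + 1 DIV do not, although none passed the adjusted threshold.

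At 2 + 1 DIV, 0 of the 9 genes differed between p27KO and WT by edgeR, 3 had an unadjusted p under 0.05 (Cks1b, Rnf123 and Fbxw7) and 1 was called by DESeq2, with 2.04% of all genes called by edgeR. An unadjusted p under 0.05 was common here, in 1901 of all 12859 genes tested by edgeR. Cks1b was 1.42-fold higher in p27KO (log2 difference 0.50, 95% interval 0.22 to 0.79, edgeR adjusted p = 0.0907). It passed the threshold with DESeq2 (log2 difference 0.52, adjusted p = 0.0154) and, in edgeR, without WT DIFF library 3 (0.65, adjusted p = 0.0185). At this stage 12 of the 14 markers of cycling cells were higher in p27KO, with a median log2 difference of 1.45, and their part in the Cks1b value was not tested. Fbxw7 was higher in both p27KO libraries than in any WT library (log2 difference 0.34, 95% interval 0.08 to 0.59, edgeR adjusted p = 0.199), and Rnf123 was lower in both (log2 difference -0.37, 95% interval -0.68 to -0.07, edgeR adjusted p = 0.242). Skp2 overlapped between genotypes, with a log2 difference of 0.23 (95% interval -0.08 to 0.54, edgeR adjusted p = 0.481). In neurospheres 0 of the 9 genes differed by edgeR, 0 had an unadjusted p under 0.05 and 0 were called by DESeq2, with 0.0156% of all genes called by edgeR, and the log2 differences ran from -0.10 for Cks1b to 0.27 for Cops5. Of all 12859 genes, 603 had an unadjusted p under 0.05 in neurospheres by edgeR.

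Cdkn1b itself rose 1.92-fold in WT and 1.33-fold in p27KO (edgeR adjusted p = 6.55e-06 and 0.00606), and at 2 + 1 DIV it was 1.48-fold lower in p27KO (edgeR adjusted p = 0.0120), a call lost without either p27KO DIFF library (adjusted p = 0.114 and 0.152). By the interaction term, its rise was smaller in p27KO by a log2 difference of -0.53, which edgeR did not call (adjusted p = 0.239). DESeq2 did call it (-0.51, adjusted p = 0.0300). Because Skp2 and Cks1b fell while Cdkn1b rose, their counts were set against each other within each library, which does not depend on the library total. The Skp2 count was 0.614, 0.506 and 0.527 of the Cdkn1b count in WT neurospheres and 0.116, 0.0836 and 0.0954 of it in WT DIFF. In p27KO the ratio was 0.542 and 0.593 in neurospheres and 0.156 and 0.184 in DIFF. The Skp2 ratio dropped 5.62-fold in WT and 3.35-fold in p27KO, and its DIFF values did not overlap between genotypes. The Cks1b count was between 0.591 and 0.615 of the Cdkn1b count in WT neurospheres and between 0.0368 and 0.0523 of it in WT DIFF. In p27KO it was 0.536 and 0.635 of it in neurospheres and 0.0910 and 0.0938 of it in DIFF. Since Cdkn1b is the gene mutated in p27KO, the p27KO ratios rest on its remaining counts. Against Skp1a, its partner in the complex, Skp2 dropped 3.91-fold in WT and 3.37-fold in p27KO.

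The pair did not fall equally. Cks1b stood at 1.00, 1.21 and 1.12 times the Skp2 count in WT neurospheres and at 0.373, 0.440 and 0.549 times in WT DIFF. In p27KO it was at 0.989 and 1.07 times in neurospheres and at 0.583 and 0.510 times in DIFF. Cks1b thus fell 2.47-fold more than Skp2 in WT and 1.89-fold more in p27KO, with no overlap between the stages. The ratios were formed after the changes of the single genes were seen and are given as a description only, and no p-value is read from them.

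**Figure D3:**
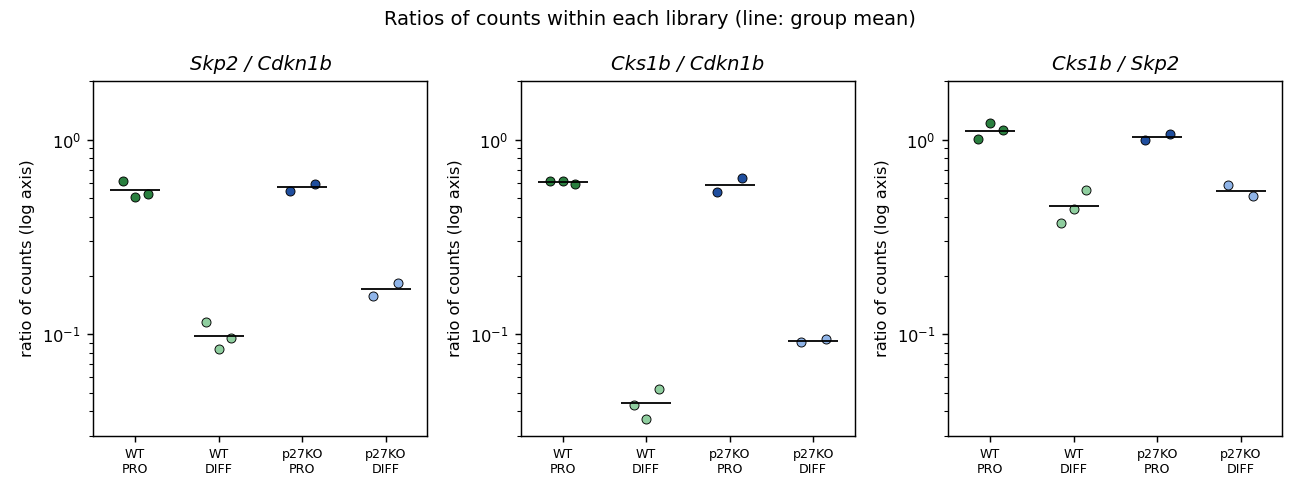
Ratios of counts within each library (log axes) by genotype and stage, with a line at each group mean. All 3 ratios are lower at 2 + 1 DIV than in neurospheres in every library, and the Skp2 to Cdkn1b ratio in DIFF is 0.0836 to 0.116 in WT and 0.156 to 0.184 in p27KO.

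The genes around these ligases were described from 9 lists chosen by function, 144 genes in all, of which 141 were tested. In WT 35 rose and 61 fell (24.8% and 43.3%, beside 33.5% and 33.9% of all genes), and in p27KO 31 rose and 55 fell (22.0% and 39.0%, beside 27.5% and 30.2%), with median log2 fold changes of -0.12 and -0.11 beside 0.00 and -0.03 over all genes. Of the 9 other genes of the COP9 signalosome, the complex of Cops5, 8 (88.9%) fell and 0 rose in each genotype by edgeR, beside falls of 33.9% of all genes in WT and 30.2% in p27KO (median log2 fold changes -0.53 and -0.49). Cops3 fell 1.87-fold, Cops7a 1.81-fold and Cops7b 1.49-fold in WT (edgeR adjusted p = 1e-05, 0.000571 and 0.000714). Of 14 genes of neddylation and SCF exchange, 4 rose and 7 fell in each genotype. Of all genes, 33.5% rose and 33.9% fell in WT and 27.5% and 30.2% in p27KO. The list included Ube2m, the conjugating enzyme for NEDD8, which fell 1.72-fold in WT, Dcun1d5, a co-factor of cullin neddylation, which fell 1.45-fold, and Glmn, an RBX1-binding inhibitor, which rose 1.43-fold (edgeR adjusted p = 4.08e-05, 0.00123 and 0.0216). The Glmn call was lost without WT PRO library 2 or 3 or WT DIFF library 3 (edgeR adjusted p = 0.0547, 0.0547 and 0.0528).

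Among 8 other cullins and RING paralogs, 1 rose and 3 fell in WT, and 2 rose and 1 fell in p27KO. The share that fell in WT, 37.5%, was near the 33.9% of all genes, and the share that rose in p27KO, 25.0%, near 27.5%. Cul9 rose 2.28-fold in WT, whereas Rnf7, a paralog of Rbx1, fell 1.59-fold and Cul2 fell 1.36-fold (edgeR adjusted p = 1.3e-05, 0.000244 and 0.00525). Of 7 ubiquitin-conjugating enzymes 3 (42.9%) fell and 0 rose in each genotype, beside falls of 33.9% and 30.2% of all genes. Cdc34, the enzyme that extends chains on SCF substrates, went from 51.8, 48.0 and 40.8 CPM to 16.5, 18.0 and 21.0 CPM in WT, a fall of 2.55-fold, and Ube2g2 and Ube2d3 fell 1.38-fold and 1.33-fold (edgeR adjusted p = 5.35e-06, 0.00218 and 0.000698).

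The other F-box genes encode proteins that share SKP1 and CUL1 with SKP2 and FBXW7. Of 45 tested, 18 (40.0%) rose and 8 (17.8%) fell in WT, beside 33.5% and 33.9% of all genes, and 13 (28.9%) rose and 7 (15.6%) fell in p27KO, beside 27.5% and 30.2%, so that the shares that rose were near those of all genes, with medians of 0.13 and 0.06. Fbxo2, an F-box gene for glycosylated proteins, rose from 4.53, 5.82 and 5.76 CPM to 161, 157 and 129 CPM in WT, 27.4-fold, and to 102 and 81.3 CPM in p27KO, 19.3-fold. Fbxo5, which encodes an inhibitor of the anaphase-promoting complex, and Ccnf, cyclin F, fell 11.7-fold and 10.6-fold in WT (edgeR adjusted p = 9.14e-08 and 4.06e-07). At 2 + 1 DIV Fbxo5, Ccnf and Fbxo48 were 2.67-, 2.55- and 2.44-fold higher in p27KO and Fbxo2 was 1.61-fold lower (edgeR adjusted p = 0.00166, 0.00714, 0.0213 and 0.0454).

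Of 21 genes for the phosphorylation, export and kinase partners of p27, 3 rose and 13 (61.9%) fell in WT and 2 rose and 12 (57.1%) fell in p27KO, beside falls of 33.9% and 30.2% of all genes (medians -0.71 and -0.70). Ccna2, cyclin A2, fell 11.9-fold in WT and 3.60-fold in p27KO, Ccne1, cyclin E1, fell 8.92-fold and 9.47-fold, and Cks2, the paralog of Cks1b, fell 7.36-fold and 3.17-fold. Ccna2 and Cks2 were 3.35-fold and 2.33-fold higher in p27KO at 2 + 1 DIV (edgeR adjusted p = 0.000937 and 0.0343). Of 15 other ligases and deubiquitinases of p27 or SKP2, 1 rose and 6 (40.0%) fell in WT and 1 rose and 4 (26.7%) fell in p27KO, near the 33.9% and 30.2% of all genes that fell. Dtl, the receptor of the CRL4 ligase that degrades CDT1 and p21, fell 12.8-fold in WT, Usp10, a deubiquitinase, 2.40-fold, and Fzr1, the APC/C activator that targets SKP2 itself, 1.74-fold (edgeR adjusted p = 4.79e-07, 3.71e-06 and 0.00142). Dtl was also 2.81-fold higher in p27KO at 2 + 1 DIV (edgeR adjusted p = 0.00695).

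Of 13 substrates of SKP2 other than p27, 3 rose and 9 fell (69.2%) in WT and 4 rose and 9 fell (69.2%) in p27KO, beside falls of 33.9% and 30.2% of all genes (medians -1.87 and -1.35). The changes varied in size, from Ccnd1 to Cdk9, a kinase of transcription, which fell 1.40-fold in WT, and Tob1, which was not called in WT (log2 fold change 0.24, edgeR adjusted p = 0.170). Ccnd1, cyclin D1, fell 59.2-fold in WT and 62.6-fold in p27KO, Cdt1, a licensing factor, 34.4-fold and 17.5-fold, and E2f1 16.0-fold and 10.8-fold. Cdt1 and Rbl1 were 2.13-fold and 1.69-fold higher in p27KO at 2 + 1 DIV (edgeR adjusted p = 0.0450 and 0.00324). All 11 tested substrates of FBXW7 changed in both genotypes, 5 (45.5%) up and 6 (54.5%) down, beside 33.5% and 33.9% of all genes in WT and 27.5% and 30.2% in p27KO. In WT the changes included small ones, such as those of Mtor, which rose 1.27-fold, and Mcl1, which fell 1.44-fold. Plk1, Aurka and Jun fell 11.6-fold, 10.0-fold and 9.80-fold in WT, and Plk1 and Aurka were 2.87-fold and 2.46-fold higher in p27KO at 2 + 1 DIV (edgeR adjusted p = 0.0120 and 0.0149). Of all 141 genes, 10 (7.09%) were higher and 1 (0.709%) lower in p27KO at 2 + 1 DIV, beside 2.04% of all genes called in either direction, and in neurospheres 0 differed by edgeR or DESeq2, with 7 at an unadjusted p under 0.05. Among all 12859 genes, 603 were at such an unadjusted p in neurospheres. The 11 calls at 2 + 1 DIV were reduced to 3 without either p27KO DIFF library, and to 0 in a fit of the 2 groups alone. Fbxo5 and Ccna2 were called without each library in turn. The other 9 calls were each lost without at least 1 p27KO DIFF library (edgeR adjusted p of 0.0551 to 0.392), Fbxo2, Cdt1 and Cks2 also without 6 of the other 8 libraries, Fbxo48 also without WT DIFF library 2 or 3, and Aurka also without WT DIFF library 3.

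**Figure D4:**
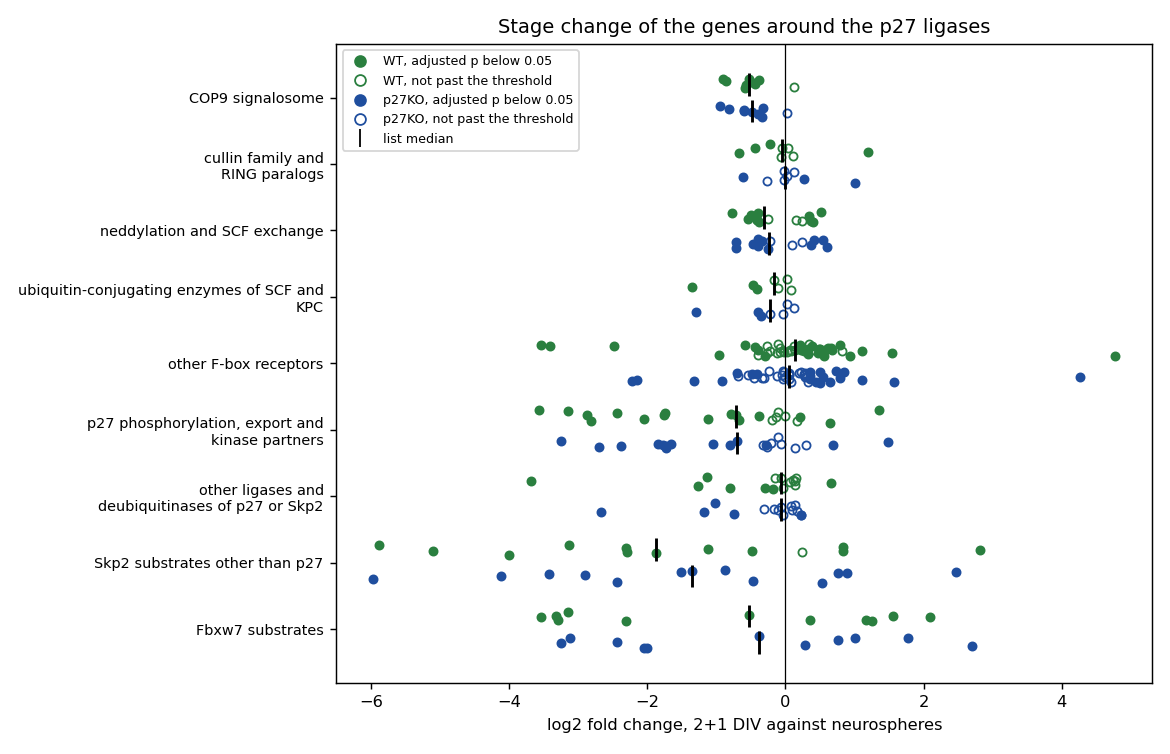
Log2 fold changes from neurospheres to 2 + 1 DIV (horizontal axis) of the tested genes of the 9 lists (rows) in WT (green) and p27KO (blue), filled where the adjusted p was below 0.05, with a bar at each list's median. The COP9 medians are -0.53 and -0.49, the F-box medians are 0.13 and 0.06, and the SKP2 substrates have the lowest medians (-1.87 and -1.35).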

How the data were processed

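RNA from 10 libraries of mouse NSC/NPC cultures (WT and p27KO, PRO and DIFF) had been amplified and sequenced by the authors. They aligned reads with STAR to the Ensembl mouse transcriptome (GRCm38/mm10 per the labels) and deposited RSEM estimated counts per gene as whole numbers without normalization. FastQC, Trimmomatic, cutadapt and DESeq2 are also named in the submitters' processing notes. Of 48795 listed genes, 48349 were matched to a symbol in GENCODE vM21, and 19955 had 0 counts in all libraries.

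A gene was left out where 4 or more of the 10 libraries had under 1 CPM, which left 12859. After TMM scaling, 4 group means were fitted in edgeR 4.0.16 (robust quasi-likelihood, R 4.3.3). Tests were two-sided, with Benjamini-Hochberg adjustment over all tested genes and a threshold of 0.05. CPM and ratios use counts as deposited, and log2 fold changes are fitted. At these depths the spread between 2 or 3 replicates sets the precision. The labels do not say whether replicates were separate cultures or animals, so that p-values measure the spread between these libraries. No replicate pair was a copy, the chi-square per gene between replicates being 12.1 to 52.5, where sampling noise alone gives about 1.

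Same-numbered WT libraries of both stages deviated together from their group means (correlations 0.255, 0.330 and 0.418, against -0.223 to -0.100 for different numbers). No source says what the numbers mark. The main fit held no pairing, so its WT p-values do not use this likeness, and a block of replicate numbers was run as an alternative. Same-numbered p27KO libraries correlated at -0.181 and those of different numbers at 0.181. With 2 libraries in a group the deviations mirror each other, so these values say little about pairing. The block of replicate numbers was nested in genotype for stage changes and the interaction, and shared by number for genotype differences. There the numbers do not pair libraries (same-numbered libraries of the 2 genotypes correlated at -0.266 to -0.0441). Values from that shared block are given below only to show how results depend on the processing, and no conclusion is drawn from them.

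The alternatives were DESeq2 size factors in edgeR, DESeq2 1.42.0, a wider filter (1 CPM or more in any 4 libraries), no filter, the groups of a comparison fitted alone, the replicate block, and each library left out in turn. The steps were tested on simulated counts. Besides the 9 genes and Cdkn1b, the genes named are, from each list, up to 3 with the largest WT stage change among called genes whose stages did not overlap and whose mean CPM was 10 or more, and any gene past the threshold in a genotype comparison. For each of the 9, the genes of closest pattern over the libraries are also named, except 1 that is not reported here. Cdk9, Tob1, Mtor, Mcl1 and the endothelial and NSC markers were named after their values were seen. The 9 genes and the lists were chosen with earlier results of these data known. Python 3.11.15 and matplotlib 3.10.9 were used for tables and plots.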

Additional observations from a re-analysis of the deposited data

Results flagged for a closer look

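Of the 141 genes around the ligases, 2 (1.42%) differed between genotypes in their stage change by the interaction test in edgeR, beside 0.389% of all genes. Fbxo5, an F-box gene, was at 31.5, 28.9 and 31.8 CPM in WT neurospheres and at 3.10, 2.03 and 2.85 CPM in WT DIFF, and at 34.8 and 30.0 CPM and then 6.62 and 7.42 CPM in p27KO. Its fall was smaller in p27KO by 1.31 on the log2 scale (edgeR adjusted p = 0.0399). Ccna2 went from 245, 259.5 and 236 CPM to 22.5, 14.7 and 25.7 CPM in WT and from 244 and 246 CPM to 73.5 and 64.9 CPM in p27KO, with a difference of 1.72 (edgeR adjusted p = 0.0230). With the replicate block nested in genotype both missed the threshold (Fbxo5 1.33, adjusted p = 0.0650, and Ccna2 1.75, adjusted p = 0.0850), and both passed it with the p27KO numbers crossed. Fbxo5 missed it also without any 1 of 8 libraries and Ccna2 without any 1 of 7, with differences of 1.16 to 1.44 and 1.53 to 1.89 over the 10 libraries left out. Of the 14 cycling markers, 5 passed the same test, and their part in these values was not tested.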

How the results depend on the processing

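Of the counts given for the 9 genes and for the 141 genes around them, the WT stage change (7 and 96) and the p27KO stage change (4 and 86) stayed within 1.5 times under every alternative run, except that 2 of the 9 were called in p27KO without p27KO DIFF library 2. Leaving out each library in turn gave 5 to 7 and 87 to 97 calls in WT, 2 to 4 and 67 to 86 in p27KO, 0 to 4 in the interaction and 3 to 10 at 2 + 1 DIV for the wider genes, and 0 to 1 at 2 + 1 DIV for the 9. The interaction of the wider genes gave 6 calls with DESeq2 (2 in edgeR). At 2 + 1 DIV, 1 of the 9 was called with DESeq2, and 0 of the wider genes (11 otherwise) in the fit of only the groups compared. The causes were not tested.

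With the replicate block, 8 of the 9 genes were called in WT (Cops5 added), 5 in p27KO (Skp1a added, although p27KO libraries share only a number), 0 in the interaction and 1 at 2 + 1 DIV (Cks1b), where libraries of different genotypes share only a number. For the stage changes and 2 + 1 DIV, no share over all genes is given under this block. In the main fit 33.9% of all genes fell and 33.5% rose in WT, 30.2% fell and 27.5% rose in p27KO, and 2.04% differed at 2 + 1 DIV. The wider genes gave 0 calls in the interaction under this block (29 over all genes, against 50) and 2 with the p27KO numbers crossed (66), an alternative chosen after seeing the data, which changed no call of the 9 relative to the block.

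Signs turned only for log2 differences that no fit called. Skp1a turned in the interaction with DESeq2 (0.00506), DESeq2 size factors (0.00498), the block (0.0135) and the crossed block (0.0138), and at 2 + 1 DIV (0.00538) and in neurospheres (0.0043) with the block. Rnf123 in neurospheres turned with DESeq2 size factors (0.000132), no filter (0.00372) and only those groups (0.00046). Ranges over libraries left out that crossed 0 were, in the interaction, -0.17 to 0.37 for Cops5, -0.00509 to 0.25 for Cul1, -0.22 to 0.11 for Rbx1, -0.27 to 0.31 for Skp1a and -0.0497 to 0.10 for Ubac1. At 2 + 1 DIV they were -0.27 to 0.0514 for Rbx1 and -0.0593 to 0.0805 for Ubac1. In neurospheres they were -0.18 to 0.10 for Cdkn1b, -0.0332 to 0.51 for Cops5, -0.17 to 0.0832 for Cul1, -0.19 to 0.0664 for Rbx1, -0.16 to 0.15 for Rnf123, -0.37 to 0.21 for Skp1a, -0.0705 to 0.0863 for Skp2 and -0.0857 to 0.0622 for Ubac1. In the p27KO stage change they were -0.48 to 0.069 for Cops5 and -0.20 to 0.11 for Rnf123.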

Other observations

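The transcripts whose log2 CPM followed each of the 9 genes most closely were ranked by Pearson's r over the 10 libraries among 9749 genes whose mean CPM was 10 or more, as a description, since the libraries share 2 stages that separate most genes. For Skp2 they were Srsf2 (r = 0.995), Nup35 and Srsf9, which encode splicing factors and a nuclear pore protein, and for Cks1b they were Alyref (r = 0.999), Shmt1 and Ipo5. For Skp1a they were Rnf20 (r = 0.974), Gabarapl2 and Pafah1b1, for Cul1 Znhit6 (r = 0.989), Senp2 and Rpp14, and for Rbx1 Tomm22 (r = 0.992), Pphln1 and Commd2. For Cops5 they included Srp9 (r = 0.989) and Eloc, for Rnf123 Cln3 (r = 0.969), Mapk3 and Mif4gd, for Ubac1 Gfm1 (r = 0.990), Man2a1 and Bicc1, and for Fbxw7 AW554918 (r = 0.941), Pdzd8 and Csnk1g1. Among the 9 genes themselves, Skp2 and Cks1b had r = 0.984.

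Set against Mki67, 1 of the 14 markers of cycling cells, Skp2 and Cks1b gave the following ratios. Ratios to the other markers were not formed, so these describe Mki67 and not cycling genes as a set. Over the 14 markers the median log2 fold change was -3.52 in WT and -2.29 in p27KO, beside -2.84 and -2.24 for Cks1b. Their median log2 difference between the genotypes at 2 + 1 DIV was 1.45. Mki67 itself fell 8.74-fold in WT and 2.79-fold in p27KO and was higher in p27KO at 2 + 1 DIV by 1.81 on the log2 scale (edgeR adjusted p = 0.00112), whereas Skp2 overlapped between the genotypes there and Cks1b was 1.42-fold higher in p27KO. The Skp2 count was 0.0655 to 0.0767 of the Mki67 count in WT neurospheres and 0.186 to 0.254 of it in WT DIFF, but 0.0564 to 0.0694 and 0.0607 to 0.0806 in p27KO. The Cks1b count was 0.0734 to 0.0804 and then 0.0757 to 0.112 of the Mki67 count in WT, and 0.0603 to 0.0686 and then 0.0354 to 0.0411 in p27KO. The ranges of the genotypes did not overlap in DIFF for either ratio, and these differences were not tested.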
